A study of Mus musculus with 10 samples.

Results

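The DCN1-like NEDD8 ligases are the 5 genes Dcun1d1, Dcun1d2, Dcun1d3, Dcun1d4 and Dcun1d5, chosen by name. Each matched 1 Ensembl identifier among the 22891 genes of the deposited table. NEDD8 is a ubiquitin-like protein that is attached to cullins, the scaffolds of a large class of ubiquitin ligases. An activating enzyme built from NAE1 and UBA3 passes NEDD8 to a conjugating enzyme, UBE2M or UBE2F, and a RING protein, RBX1 or RNF7, brings the loaded enzyme to the cullin. DCN1-like proteins are an additional ligase component: they hold the cullin and the acetylated amino terminus of the conjugating enzyme together through a shared C-terminal domain, the potentiating neddylation or PONY domain, and so speed the transfer. They differ at the amino terminus. The products of Dcun1d1 and Dcun1d2 carry a ubiquitin-associated domain, that of Dcun1d3 is fixed to membranes by a fatty acid on its second residue, a glycine, and those of Dcun1d4 and Dcun1d5 carry signals for entry into the nucleus.

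RNA came from entire ovaries of mice aged 3 weeks, of a C57/Bl6/N;129SvEv7 background, that had received no hormone stimulation. The groups were 5 samples with the genotype label Control and 5 with the label Uba3 cKO. The labels name neither the Cre driver, the deleted exons, nor the alleles that the controls carry, and they do not say whether each sample came from its own animal. P-values therefore measure the spread between these samples, which may be technical. The table holds 1 value per gene and library, and neither the transform nor the sequencing depth behind it is known. Judged from their range, the values are read here as log2, on which a difference of 1 is a doubling. Folds, linear values and shares below rest on this reading and may be inexact under another transform. Uba3, the targeted gene, averaged 10.12 ± 0.18 (SD, n = 5) in the control libraries. Those labelled Uba3 cKO averaged 10.12 ± 0.069 (SD, n = 5), so its level in the whole organ did not separate the labels, and group names here are the labels' own. The oocyte growth factor Gdf9 and the granulosa hormone Amh were abundant, with mean log2 values of 12.27 and 13.78 over the 10 libraries.

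The coding sequences show how the members relate, and the openings of their reading frames are printed because the proteins differ there. Each line gives the initial 60 coding bases of 1 GENCODE M21 transcript on build GRCm38, with the second codon in capitals.
Dcun1d1: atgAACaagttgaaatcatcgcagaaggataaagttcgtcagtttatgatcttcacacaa
Dcun1d2: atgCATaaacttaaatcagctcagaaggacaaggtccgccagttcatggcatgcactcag
Dcun1d3: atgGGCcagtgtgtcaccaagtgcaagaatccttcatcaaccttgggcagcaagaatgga
Dcun1d4: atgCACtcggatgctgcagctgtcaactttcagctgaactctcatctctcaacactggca
Dcun1d5: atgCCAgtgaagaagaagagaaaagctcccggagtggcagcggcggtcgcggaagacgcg
The stretches lie at chr3:35921131-35932787 (minus strand), chr8:13281069-13287806 (minus), chr7:119859751-119859810 (minus), chr5:73491167-73510920 (plus) and chr9:7184797-7184856 (plus), in that order. Those of Dcun1d1, Dcun1d2 and Dcun1d4 span an intron. Of the 5 second codons, only that of Dcun1d3 encodes glycine. The transcripts encode 259, 259, 304, 292 and 237 residues from Dcun1d1 to Dcun1d5. Over aligned coding bases, Dcun1d1 and Dcun1d2 were 71.9% identical and Dcun1d4 and Dcun1d5 71.1%, while the other 8 pairs lay between 56.9% and 63.9%.

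Dcun1d1 also has a near copy elsewhere in the genome, which bears on its measured level. Tes3-ps on chromosome 13, annotated as a protein-coding gene, matched the Dcun1d1 transcript at 99.0% identity over 2793 aligned bases, coding and untranslated. It differed at 3 of 780 coding bases, with a longest identical coding run of 430 bases. A stretch around 1 of these bases is shown with that base in capitals, at chr3:35921125-35921184 (minus strand) and chr13:49493656-49493715 (plus strand) of GRCm38.
Dcun1d1: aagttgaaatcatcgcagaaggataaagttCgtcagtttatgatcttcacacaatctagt
Tes3-ps: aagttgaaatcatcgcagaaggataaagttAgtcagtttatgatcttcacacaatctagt
Tes3-ps was listed between 2.60 and 2.75 log2 units in the 10 libraries, below the filter on low values. How reads that fit both genes were counted is not given in the sources used here, so the level of Dcun1d1 is uncertain to that extent. The other members had no match to another gene over at least 100 bases at 90% identity. Dcun1d1 shares 123 exonic bases with the antisense gene Gm15952 (mean 3.06) and Dcun1d3 shares 37 with Lyrm1 (mean 5.08). Strand handling is not given either, so reads in these overlaps cannot be assigned.

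All 5 members passed the filter, a mean log2 value no lower than 3.32 (a linear value of 10), with 15629 genes in all. Their levels were nearly the same in the groups, and none of the differences exceeded the spread between libraries. In the fit over all genes with limma, a linear model with moderated variances, 0 of 5 members passed an adjusted p of 0.05, as did 0% of all tested genes. At an unadjusted p under 0.05 there were 0 of 5 members against 1.79% of all genes (280 genes). The groups overlapped in all 5 members, and they did not overlap in 0.32% of all genes. The median difference of the members was -0.0071 log2 units, beside 0.00034 over all tested genes. In bulk RNA, fewer cells of a type and less RNA per cell cannot be told apart.

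**Figure D1:**
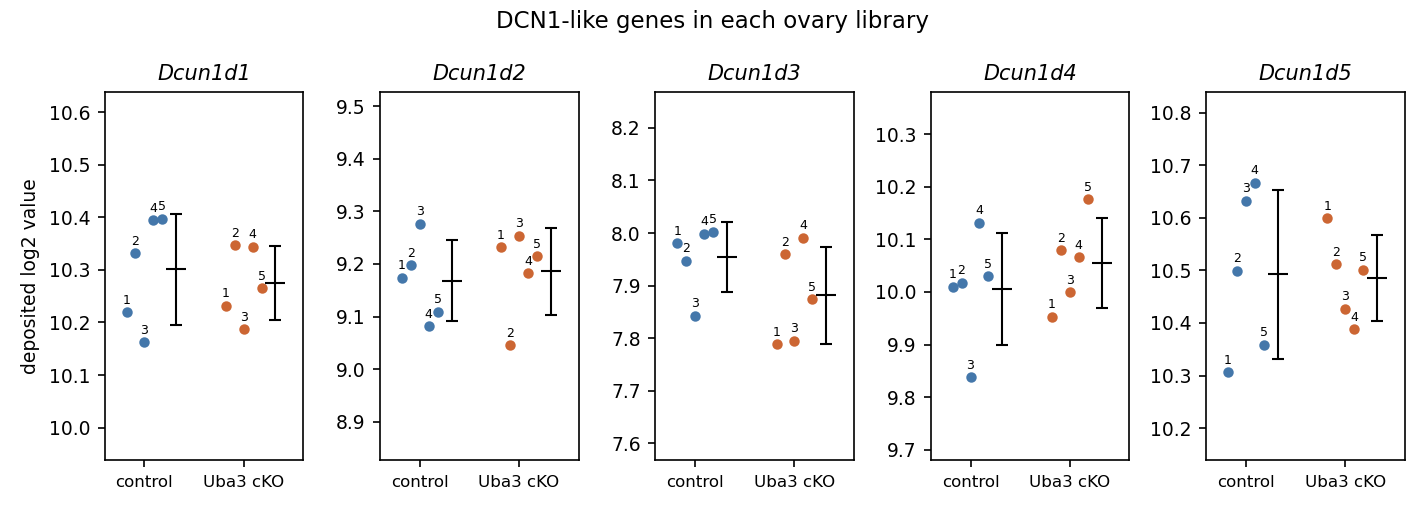
Deposited log2 values of the 5 DCN1-like genes. Each point is a library with its replicate number, the bars are mean ± SD of 5 libraries, and every vertical axis spans 0.7 log2 units but not from 0. Points of the groups overlap in each panel, and control replicate 3 is lowest of all for Dcun1d1 and Dcun1d4 and highest for Dcun1d2.

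Dcun1d1, also known as SCCRO, had control values of 10.22, 10.33, 10.16, 10.39 and 10.40 in replicates 1 to 5. Under the Uba3 cKO label the values were 10.23, 10.35, 10.19, 10.34 and 10.27. All 5 of the latter fell inside the control range. The means were 10.30 ± 0.11 (SD, n = 5) and 10.28 ± 0.070 (SD, n = 5). The difference was -0.026 (standard error 0.064, 95% interval -0.16 to 0.11, limma adjusted p = 1.0; exact two-sided permutation p = 0.667).

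Dcun1d2, the closest relative of Dcun1d1, stood at 9.17, 9.20, 9.28, 9.08 and 9.11 in controls. The libraries labelled Uba3 cKO had 9.23, 9.05, 9.25, 9.18 and 9.21. Uba3 cKO replicate 2 was the lowest library and control replicate 3 the highest. The difference was 0.018 (standard error 0.065, 95% interval -0.12 to 0.16; exact permutation p = 0.746).

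Dcun1d3, the membrane-bound member, had the lowest values: 7.98, 7.95, 7.84, 7.999 and 8.003 in controls. The Uba3 cKO libraries had 7.79, 7.96, 7.79, 7.99 and 7.87. Replicates 1 and 3 of the latter group lay below every control, and the other 3 lay inside the control range. Means were 7.95 ± 0.066 and 7.88 ± 0.093 (SD, n = 5 each). The difference of -0.073 was the largest of the family in size (standard error 0.074, 95% interval -0.23 to 0.088; exact permutation p = 0.190). That of Dcun1d4 was larger in size without control replicate 4, Uba3 cKO replicate 1 or Uba3 cKO replicate 3 (0.081, 0.074 and 0.063 against -0.062, -0.050 and -0.052 for Dcun1d3).

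Dcun1d4 had control values of 10.01, 10.02, 9.84, 10.13 and 10.03. Under the Uba3 cKO label they were 9.95, 10.08, 9.9995, 10.07 and 10.18. Control replicate 3 stood below all others and Uba3 cKO replicate 5 above them. The difference was 0.049 (standard error 0.067, 95% interval -0.095 to 0.19; exact permutation p = 0.460).

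Dcun1d5 varied most between libraries, with 10.31, 10.50, 10.63, 10.67 and 10.36 in controls. In the Uba3 cKO libraries it stood at 10.60, 10.51, 10.43, 10.39 and 10.50, all inside the control range. Its control SD of 0.16 exceeded that of 0.082 under the Uba3 cKO label. The difference was -0.0071 (standard error 0.078, 95% interval -0.18 to 0.16; exact permutation p = 0.944).

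The intervals bound what these libraries could have hidden at the level of the organ. In folds they ran from 0.850 for the lower bound of Dcun1d3 to 1.14 for the upper bound of Dcun1d4. Half-widths were 0.14 to 0.17 log2 units, against a median of 0.18 for the 8276 genes with means between 7.5 and 11. Members were also steady across all 10 libraries: the highest and lowest library differed 1.16-fold for Dcun1d3, 1.17-fold for Dcun1d2, 1.18-fold for Dcun1d1, 1.26-fold for Dcun1d4 and 1.28-fold for Dcun1d5. Of genes with a mean within 0.5 log2 units, 92.6% had a larger SD than Dcun1d3 and 90.2% a larger SD than Dcun1d2. The share was 76.6% for Dcun1d1, 71.4% for Dcun1d4 and 49.2% for Dcun1d5.

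Levels between genes were compared per kilobase of exon, as a log2 value minus the log2 of the length of all annotated exons merged. On this scale Dcun1d5 led with 8.87 ± 0.12 (SD, n = 10), followed by Dcun1d4 with 7.49 ± 0.094, Dcun1d1 with 7.11 ± 0.086, Dcun1d2 with 6.86 ± 0.076 and Dcun1d3 with 4.95 ± 0.085. This order held in 10 of 10 libraries at each step, with a gap as small as 0.030 between Dcun1d1 and Dcun1d2 in the closest library. As shares of the family total per kilobase, Dcun1d5 made up 50.2% ± 3.0 of the controls' sum and 49.9% ± 1.8 of that in libraries labelled Uba3 cKO. Dcun1d4 made up 19.0% ± 1.5 and 19.6% ± 1.1. Dcun1d1 made up 15.01% ± 1.2 and 14.7% ± 0.79, and Dcun1d2 12.4% ± 1.0 and 12.5% ± 0.83. Dcun1d3 made up 3.398% ± 0.27 and 3.23% ± 0.24 (SD, n = 5 for each share).

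The order among the leading members depends on the length used. Per kilobase of the longest transcript, Dcun1d4 and Dcun1d1 did not differ beyond their spread (mean gap 0.016 ± 0.079, Dcun1d4 higher in 5 of 10 libraries), while Dcun1d5 stayed highest. Per kilobase of the median coding transcript, Dcun1d1 came out highest at 10.58 and Dcun1d5 next at 10.32. The median coding transcript of Dcun1d1 has 814 bases, against 9023 for its merged exons. Dcun1d2 and Dcun1d3 kept the fourth and the fifth place under each of the 3 lengths.

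**Figure D2:**
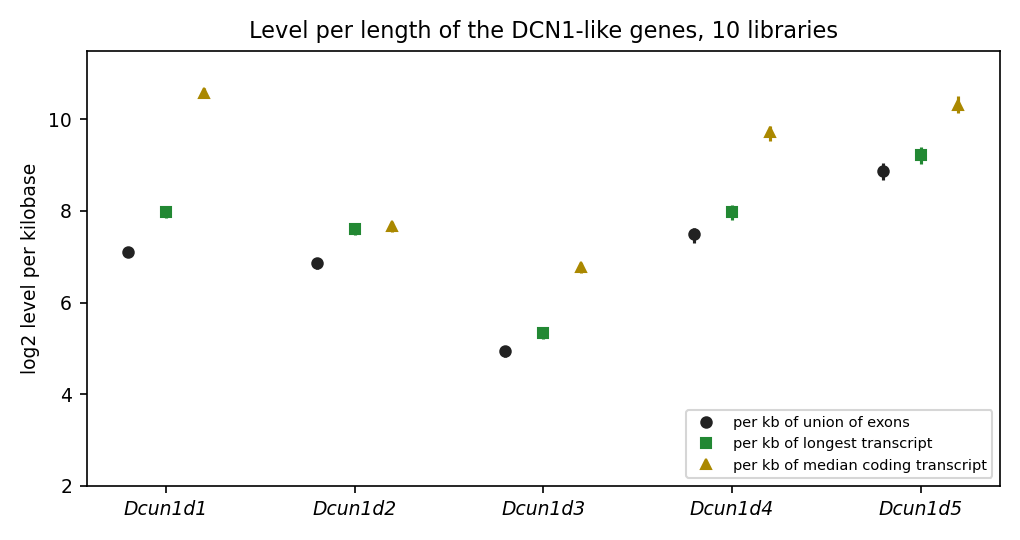
Log2 level per kilobase of the 5 genes over 10 libraries, by 3 definitions of length. Symbols are means and vertical lines run from the lowest to the highest library. Dcun1d3 is lowest under each definition, and the symbols of Dcun1d1 range from 7.11 to 10.58.

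For plain log2 values, constant gene length and a library's scaling factor cancel in the log2 ratio of a pair of members within that library. The transform of these values is not named, so full cancelling is not certain. Over the 10 pairs, differences in log2 ratio between the groups ran from -0.12 to 0.091. The pair Dcun1d3 and Dcun1d4 differed most: the log2 ratio of Dcun1d3 to Dcun1d4 averaged -2.05 ± 0.053 in control libraries and -2.17 ± 0.087 in the other group (SD, n = 5 each). The difference of -0.12 had an exact two-sided permutation p of 0.0317 and an adjusted p over the 10 pairs of 0.317, so it did not pass. Adjusted p-values of the other 9 pairs were between 0.714 and 0.865. With 5 against 5 the smallest possible p is 0.00794, so a single pair cannot pass adjustment over 10.

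Members varied together or against each other from library to library. Dcun1d1 and Dcun1d2, the pair with the most alike coding sequences, ran in opposite directions (Pearson r = -0.82, n = 10, permutation p = 0.00403, adjusted p over 10 pairs 0.0403; Spearman rho = -0.83, p = 0.00455). Dcun1d1 and Dcun1d3 ran together (r = 0.78, permutation p = 0.0120, adjusted 0.0456; rho = 0.78, p = 0.0105). Dcun1d2 and Dcun1d3 ran in opposite directions (r = -0.75, permutation p = 0.0137, adjusted 0.0456; rho = -0.81, p = 0.00686). With values centred within each group, r was -0.82, 0.81 and -0.79. Without the 2 libraries farthest from the median of the first-named gene, r was -0.69, 0.66 and -0.84. The other 7 pairs did not pass adjustment, among them Dcun1d4 and Dcun1d5, whose coding sequences are also close (r = -0.13, permutation p = 0.727; rho = 0.030, p = 0.946; 0.74 after removal of the length slope described next).

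With 1 library left out in turn, r ran from -0.88 to -0.77 for Dcun1d1 with Dcun1d2, from 0.73 to 0.93 for Dcun1d1 with Dcun1d3 and from -0.83 to -0.71 for Dcun1d2 with Dcun1d3. Unadjusted permutation p-values stayed at or below 0.0193, 0.0273 and 0.0303, while the adjusted values often crossed the threshold. Leaving out any of control replicates 3, 4 or 5 or Uba3 cKO replicates 1, 3 or 4 took the adjusted p of Dcun1d1 with Dcun1d2 above 0.05. For Dcun1d1 with Dcun1d3 it stayed below 0.05 only without control replicate 1 or Uba3 cKO replicate 5, and for Dcun1d2 with Dcun1d3 only without Uba3 cKO replicate 2 or 5. Without Uba3 cKO replicate 3 all 3 had an adjusted permutation p of 0.101 over the 9 remaining libraries. Of 9206 genes whose mean log2 value was 8 or higher, 1.75% were as strongly negative with Dcun1d1 as Dcun1d2 was, and 0.369% as strongly negative with Dcun1d2 as Dcun1d1 was.

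The libraries differed in how values depended on gene length, and the members followed this difference. For each library, the deviations of 9178 genes from their own means were regressed on log2 exon length, leaving out the members. The slope ran from -0.15 in control replicate 3, where long genes were lower, to 0.058 in control replicate 5, with the second lowest, -0.060, in Uba3 cKO replicate 1. Dcun1d1, Dcun1d3 and Dcun1d4, with merged exons of 9023, 7838 and 5807 bases, rose with the slope across libraries (r = 0.68, 0.67 and 0.77; permutation p = 0.0137, 0.0238 and 0.0117; adjusted over 5 members 0.0343, 0.0370 and 0.0343). Dcun1d2 and Dcun1d5, with 4988 and 3077 bases, fell with it (r = -0.64 for both; permutation p = 0.0370 and 0.0365; adjusted 0.0370 for both). In the same order from Dcun1d1 to Dcun1d5, rho was 0.72, -0.76, 0.81, 0.62 and -0.60 (permutation p = 0.0228, 0.0141, 0.00735, 0.0593 and 0.0737; adjusted 0.0380, 0.0354, 0.0354, 0.0737 and 0.0737).

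The relation of Dcun1d4 to the slope leaned most on control replicate 3: r was 0.44 without it and 0.75 without Uba3 cKO replicate 1. Without control replicate 3 and Uba3 cKO replicate 1, the farthest from the median slope, r was 0.019 for Dcun1d4. It was 0.48 for Dcun1d1, -0.45 for Dcun1d2, 0.68 for Dcun1d3 and -0.48 for Dcun1d5. Relations of this size are common in the table: among genes whose mean log2 value was 8 or higher, 28.4% had r above 0.6 with the slope and 20.7% had r below -0.6. With the slope regressed out of both genes, r was -0.68 for Dcun1d1 with Dcun1d2, 0.60 for Dcun1d1 with Dcun1d3 and -0.57 for Dcun1d2 with Dcun1d3. Pairs with Dcun1d5 that showed no relation before moved to similar or larger values: 0.74 for Dcun1d4 with Dcun1d5, 0.68 for Dcun1d1 with Dcun1d5 and -0.59 for Dcun1d2 with Dcun1d5. The other 4 pairs lay between -0.15 and 0.20. What sets the slope, and its part in the covariation of the members, was not tested. These length comparisons were chosen after seeing the data.

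**Figure D3:**
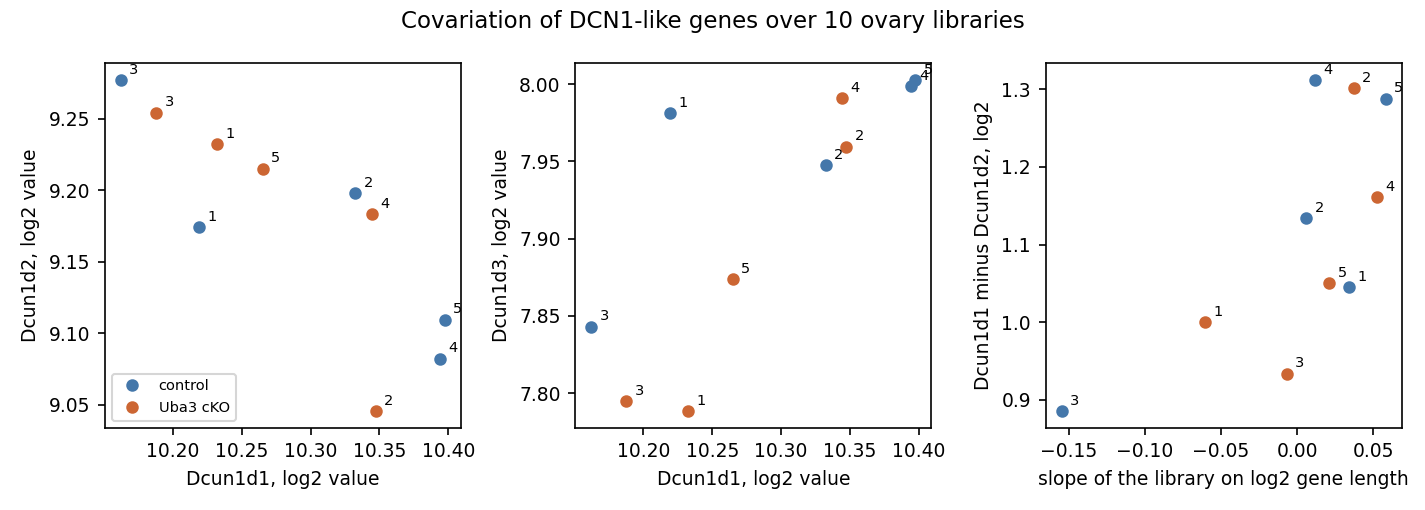
Covariation of DCN1-like genes over 10 libraries, numbered by replicate: Dcun1d2 and Dcun1d3 against Dcun1d1 in log2 values, and the log2 difference of Dcun1d1 and Dcun1d2 against the slope of each library on log2 gene length. Dcun1d2 falls as Dcun1d1 rises (r = -0.82), Dcun1d3 rises with it (r = 0.78), and control replicate 3 stands apart on the slope axis at -0.15.

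The makeup of the ovary was checked with 78 markers of 8 kinds of cells, all of which passed the filter. Mean marker levels differed between libraries by 1.30-fold for granulosa cells to 1.96-fold for stroma, and no list differed between the groups beyond its spread (smallest exact permutation p = 0.452). Oocyte markers, which include Gdf9 and Bmp15, averaged 9.35 ± 0.29 in control libraries and 9.32 ± 0.37 in the other group (SD, n = 5 each). None of the 40 correlations of a member with a marker level passed adjustment (smallest adjusted p = 0.741 for r and 0.803 for rho), and 2 values of r had an unadjusted permutation p under 0.05, both of Dcun1d4. The r of Dcun1d4 with granulosa markers such as Amh and Foxl2 was 0.67 (n = 10, permutation p = 0.0292; rho = 0.64, p = 0.0532), and 12.7% of genes whose mean log2 value was 8 or higher had r above 0.6 with the same markers. Its r with macrophage markers such as Cd68 and Csf1r was -0.66 (permutation p = 0.0370; rho = -0.58, p = 0.0907), and -0.26 without control replicate 4 and Uba3 cKO replicate 5. Over the 10 libraries 2.62% of these genes had r below -0.6 with macrophage markers. The macrophage list had the lowest level of the 8, at 5.48 in control libraries and 5.46 in the other group. Its marker Ptprc, at 3.49 and 3.51, lay near the filter. By rank, Dcun1d5 with surface epithelium markers had the only unadjusted p under 0.05 (rho = 0.70, permutation p = 0.0306; r = 0.55, p = 0.101). With oocyte markers the members had r of 0.14, 0.019, 0.057, -0.51 and 0.14 from Dcun1d1 to Dcun1d5. Dcun1d3 with granulosa markers had r = 0.59 (permutation p = 0.0782), and 0.82 with values centred within each group. The centred r of Dcun1d4 with granulosa markers was 0.65. Centred correlations with markers were not tested.

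The genes most like each member were taken as the 3 with the highest Pearson r over the 10 libraries among genes whose mean log2 value was 8 or higher, as a description with no test. For Dcun1d1 they were Dsg2, a desmosomal cadherin (r = 0.95), Cxadr, a junction protein that serves as the coxsackievirus and adenovirus receptor (0.94), and Mtf2, a Polycomb-like protein (0.93). For Dcun1d2 they were Mettl23 (0.92), Hgh1 (0.90) and D10Jhu81e (0.89). For Dcun1d3 they were Abi2, an Abl interactor (0.95), the transcription factor Mef2a (0.94) and the kinase Bmp2k (0.93). For Dcun1d4 they were Adamts19, a secreted metalloprotease (0.97), Papolg, a poly(A) polymerase (0.97), and Slc6a15, an amino acid transporter (0.96). For Dcun1d5 they were Exosc1, a subunit of the RNA exosome (0.95), Pdcd2l (0.91) and Nip7, a ribosome assembly factor (0.89). Dcun1d4 had 60 genes with r above 0.9, Dcun1d1 had 13, Dcun1d3 had 6, Dcun1d5 had 2 and Dcun1d2 had 1. These r values were not adjusted for the length slope that the libraries share.

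The partners of DCN1-like proteins were close between the groups as well. Of 33 genes in 8 pathway lists, 22 averaged higher in the libraries labelled Uba3 cKO and 11 averaged lower, and 0 passed the adjusted or the unadjusted threshold by limma. Over all 15629 tested genes, 7839 averaged higher and 7790 lower, and 1.79% passed the unadjusted threshold. The median difference was 0.014 for the pathway lists and 0.00034 for all tested genes. Whether the lists shifted as sets was not tested. Among the conjugating enzymes that DCN1-like proteins grip, Ube2m averaged 11.29 ± 0.21 in control libraries and 11.25 ± 0.061 in the other group, and Ube2f 9.41 ± 0.065 and 9.43 ± 0.064 (SD, n = 5 each). The NatC subunits, which acetylate amino termini of this kind, differed by 0.015 for the catalytic Naa30, 0.031 for Naa35 and -0.061 for Naa38. Nedd8 itself stood at 10.82 ± 0.14 and 10.73 ± 0.14, a difference of -0.097 (standard error 0.084), and Nae1 differed by 0.020.

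On the cullin side, Rbx1 differed by -0.097 (standard error 0.076) and Rnf7 by -0.041. Of 8 cullins 6 averaged higher in the Uba3 cKO group, with Cul9 at 9.80 ± 0.17 and 9.91 ± 0.13 and Cul3 at 11.28 ± 0.20 and 11.21 ± 0.13. Cand1 and Cand2, which exchange substrate receptors on cullins that lack NEDD8, differed by 0.037 and 0.047, and Glmn, which covers RBX1, by 0.049. Among genes that act after the transfer, the proteases Senp8 and Uchl3 differed by -0.080 and 0.00051. Senp8 had an unadjusted exact permutation p of 0.0476, against an unadjusted limma p of 0.236. In the COP9 signalosome, which removes NEDD8 from cullins, 7 of 10 subunits had the higher mean. Cops9 had the largest difference of all 33, at 9.24 ± 0.20 and 9.03 ± 0.26 (difference -0.21, standard error 0.13, limma adjusted p = 1.0), and Cops7b differed by 0.076. Beside these partners the 5 DCN1-like genes spanned differences from -0.073 to 0.049, within the range of -0.21 to 0.11 of the pathway lists.

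**Figure D4:**
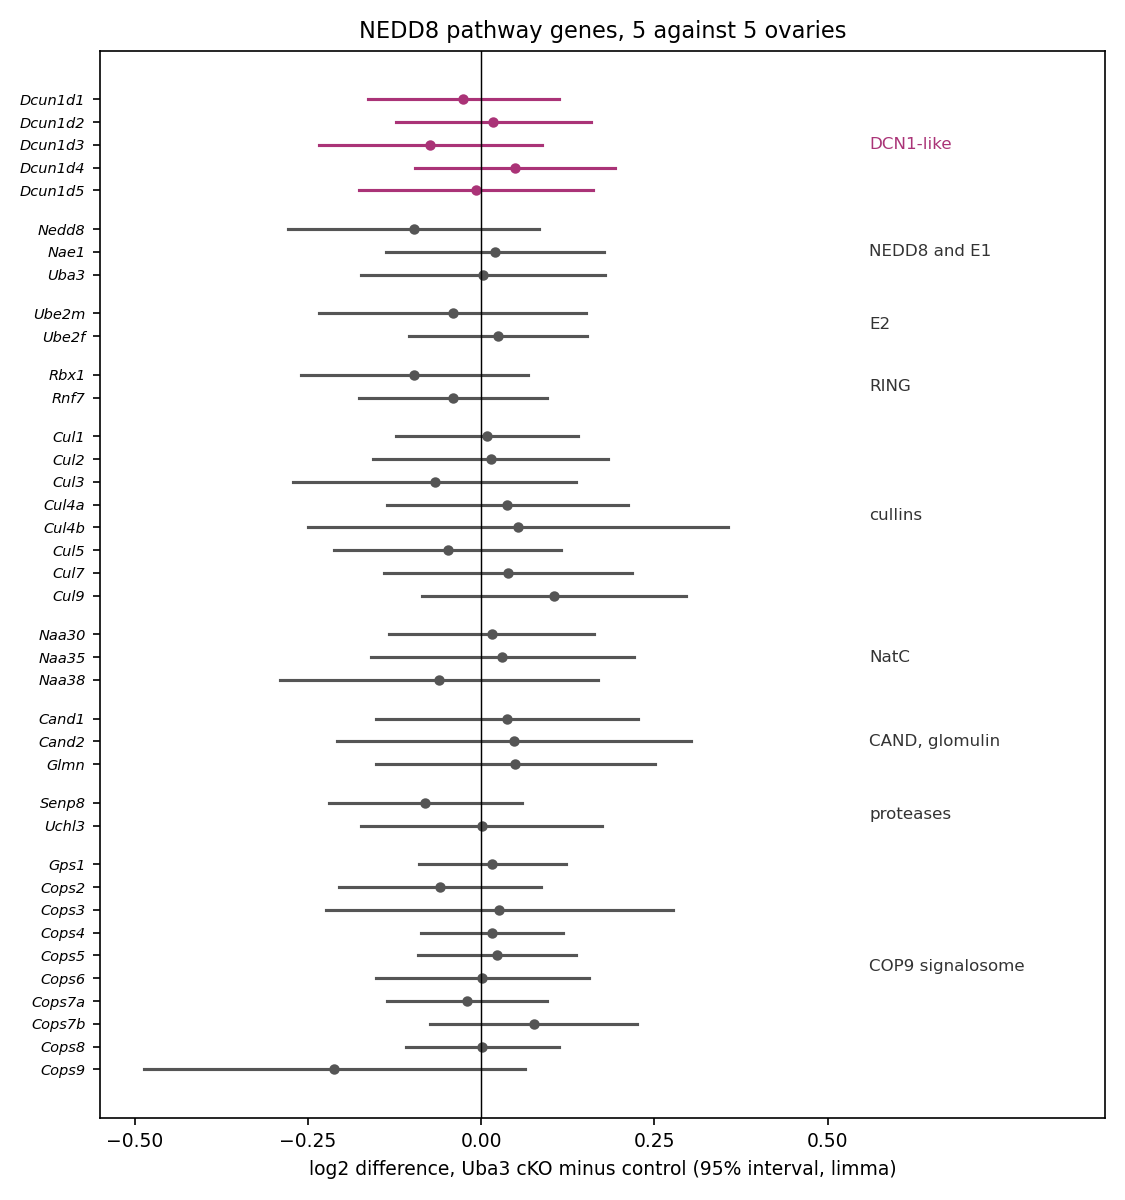
Log2 difference, Uba3 cKO minus control, with its 95% interval from limma, for the 5 DCN1-like genes and 33 other genes of the NEDD8 pathway (5 libraries a group). Every interval includes 0, and that of Cops9 is the farthest to the left, with its mean at -0.21.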

How the data were processed

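The labels' protocols name TruSeq library preparation from total RNA of 10 whole-ovary samples and a NovaSeq sequencer. The submitters' processing notes name fastp, STAR, featureCounts, DESeq2 and the build GRCm39, without versions or order. The deposited values lie on a log2 scale, judged from their range, with library medians of 6.29 to 6.44; the transform the authors used is not named. The median SD per gene was 0.085 for means between 2 and 4, highest at 0.17 for means between 6 and 8, and 0.12 for means between 10 and 12. No depth or counting error can be given.

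Symbols (22188 of 22891 identifiers), lengths, overlaps and transcripts came from GENCODE M21 (GRCm38). The test (limma 3.58.1, R 4.3.3) took genes whose mean log2 value reached 3.32, a linear value of 10. It had the trend option on, no covariate, and Benjamini-Hochberg adjustment over all 15629 genes. Single values were compared with exact permutation tests and correlations with 100000 permutations (scipy 1.17.1). Near copies were searched with blastn 2.17.0, and coding sequences, taken from the APPRIS-tagged transcript with the longest reading frame, were aligned with Biopython 1.88. Fits were checked on simulated data, made from shuffled residuals with shifts added to some genes. Some of these shuffles gave excess calls among unshifted genes. Members and lists were chosen with earlier results of these data known. The named genes are the 5 members, Uba3, the 3 genes most correlated with each member, the 2 of each pathway list with the smallest p (all of lists with up to 3) and the leading 2 markers of a cell type. Alternatives covered the filter, trend, block, weights, scaling, covariates, length and each library left out.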

Additional observations from a re-analysis of the deposited data

Results flagged for a closer look

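Among 48 sets of 5 libraries checked for a value far from the others (members, log ratios, marker levels and the length slope), 2 stood out, and chance alone marks about 1 in 20. The length slope of control replicate 3, at -0.15, lay apart from the other 4 controls, with a gap of 0.755 of the group's range. This library also had the lowest value of Dcun1d1 and Dcun1d4 and the highest of Dcun1d2. The macrophage marker level of Uba3 cKO replicate 5, at 5.24, lay below the other 4 of its group with a gap of 0.937 of the range, and this library had the highest value of Dcun1d4. Macrophage markers were low throughout, with a mean of 5.46 in that group. The part of either property in the values of the members was not tested.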

How the results depend on the processing

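No member was called under any of 19 alternative settings. The differences of Dcun1d1, Dcun1d3 and Dcun1d4 kept their sign in all 19. Leaving out 1 library in turn, the difference ran from -0.060 to -0.0016 (without control replicate 5) for Dcun1d1, from -0.10 to -0.050 for Dcun1d3 and from 0.0072 (without control replicate 3) to 0.081 for Dcun1d4. It ran from -0.0038 (without control replicate 4) to 0.053 for Dcun1d2 and from -0.054 to 0.036 for Dcun1d5, which turned without replicate 3 or 4 of either group and also turned to 0.015 with the length slope as a covariate. With that covariate 1 gene of the table was called, Dip2c, against 0 otherwise. Leave-one-out ranges of the log ratio difference crossed 0 for 5 pairs: -0.11 to 0.0013 for Dcun1d1 to Dcun1d2, -0.088 to 0.039 for Dcun1d1 to Dcun1d5, -0.084 to 0.038 for Dcun1d2 to Dcun1d4, -0.040 to 0.073 for Dcun1d2 to Dcun1d5 and -0.021 to 0.11 for Dcun1d4 to Dcun1d5. The range for Dcun1d3 to Dcun1d4 was -0.15 to -0.090. The cause was not tested. Per kilobase of the median coding transcript, Dcun1d1 moved to place 1, Dcun1d5 to 2 and Dcun1d4 to 3. Leaving out 1 library, r ran from -0.88 to -0.77 for Dcun1d1 with Dcun1d2, from 0.73 to 0.93 for Dcun1d1 with Dcun1d3 and from -0.83 to -0.71 for Dcun1d2 with Dcun1d3. The labels do not say whether same-numbered libraries of the groups were paired. Correlations of their deviations ran from -0.34 to 0.32, too few values to settle that. With the replicate block the count of calls stayed 0 (311 genes at an unadjusted p under 0.05 against 280), and the difference of Dcun1d3 was -0.073 in both fits.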
